A study of Mus musculus with 6 samples.

Results

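Cholesterol synthesis from squalene onwards was followed through 9 genes, Fdft1, Sqle, Lss, Cyp51, Msmo1, Nsdhl, Hsd17b7, Ebp and Dhcr7, in a mouse breast carcinoma line in which a LINE-1 (L1) retrotransposon can be switched on with doxycycline. The 9 were taken by gene symbol from a table of 24421 genes, and all 9 were found once. They belong to a pathway that was chosen by the counts of its genes in these same libraries, for the difference between doxycycline and untreated cells. The difference between the groups is therefore given for them as a description, and the count of the 9 past the threshold of the fit over all genes is printed once, beside the share of all genes, with nothing read from it. With doxycycline, 7 of the 9 were 1.26- to 1.51-fold higher, while Dhcr7 was 1.14-fold and Ebp 1.04-fold above the untreated level.

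The study made these cells to examine how L1 expression bears on drug resistance, and the comparison asks how the transcriptome differs after doxycycline. Total RNA had been sequenced from 4T1-tetL1(GLucAI) cells, derived from the 4T1 breast carcinoma and given the strain BALB/cfC3H. Both groups carried the same cassette, a recoded mouse L1 with a Gaussia luciferase retrotransposition reporter and a firefly luciferase under a bidirectional doxycycline-inducible promoter, with the Tet-On transactivator driven by the EF1α promoter. The cells were a blasticidin-selected population, grown in a DMEM-based medium with fetal bovine serum. One group of 3 libraries was left untreated (its treatment tag reads Vehicle), and the other 3 came from cells kept with 400 ng/mL of doxycycline for 48 h. Doxycycline-treated cells without the cassette were not analysed here, so the drug and the induced cassette cannot be told apart. Counts of the cassette were not analysed here either, so the direction of every difference rests on the titles of the libraries. The study calls the libraries biological triplicates, while the labels name no separate cultures, so p-values measure the spread between these libraries, part of which may be technical.

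Cholesterol is built in the membrane of the endoplasmic reticulum (ER) from farnesyl diphosphate, the product of the mevalonate pathway. Squalene synthase commits farnesyl diphosphate to sterols, squalene is oxidised and folded into lanosterol, and lanosterol loses methyl groups and has its double bonds moved and reduced until cholesterol remains. Genes of both pathways are activated by sterol regulatory element-binding proteins (SREBPs), which the Insig proteins hold back in the ER when sterols are plentiful. Dividing carcinoma cells need cholesterol for new membranes and obtain it by synthesis and by uptake of lipoproteins from serum.

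The promoters of these genes are shown because SREBPs are known to act on sterol genes together with NF-Y, a factor that binds CCAAT, and with Sp1, which binds GC-rich boxes such as GGGCGG. RefSeq promoters (GRCm38.p6, 250 bases before to 50 after a gene's start) were at hand for 7 of the 9, with 3 for Dhcr7. CCAAT was found on either strand in 7 of these 7 genes and in 7 of their 9 promoters, and 37.4% of all 32851 promoters of this length hold it. GGGCGG was found in 7 of 7 genes and in 8 of 9 promoters, against 35.7% of all promoters. All promoters were not matched to these for GC content, and the shares say only that the letters are there. Binding of any factor was not tested. TCACNCCAC, one form of the sterol regulatory element, was in 0 of the 9 promoters and in 1.24% of all, and TATAAA was in 0 of the 9 and in 13.6% of all, which says only that these letters are not in these windows. Nsdhl (chrX:72918271-72918570, plus strand) is printed as the gene with the largest difference between the groups, Msmo1 (chr8:64733529-64733828, minus strand) as the one with the highest level, Hsd17b7 (chr1:169969156-169969455, minus strand) as another with 3 CCAAT, and Ebp (chrX:8193463-8193762, minus strand) as the one whose groups overlapped. Each runs 5′ to 3′ along its gene, with CCAAT or its reverse complement ATTGG in capitals.
Nsdhl: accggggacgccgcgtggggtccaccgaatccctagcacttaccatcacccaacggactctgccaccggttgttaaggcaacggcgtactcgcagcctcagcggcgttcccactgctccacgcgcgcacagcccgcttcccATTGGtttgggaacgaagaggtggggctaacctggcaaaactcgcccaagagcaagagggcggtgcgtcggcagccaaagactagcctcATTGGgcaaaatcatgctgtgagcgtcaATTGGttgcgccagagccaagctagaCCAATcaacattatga
Msmo1: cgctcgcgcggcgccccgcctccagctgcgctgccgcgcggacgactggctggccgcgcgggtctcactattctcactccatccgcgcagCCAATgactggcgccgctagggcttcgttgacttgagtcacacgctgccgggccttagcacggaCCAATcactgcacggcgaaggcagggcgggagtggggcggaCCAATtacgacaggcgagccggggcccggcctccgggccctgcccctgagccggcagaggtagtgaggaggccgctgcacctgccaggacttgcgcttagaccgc
Hsd17b7: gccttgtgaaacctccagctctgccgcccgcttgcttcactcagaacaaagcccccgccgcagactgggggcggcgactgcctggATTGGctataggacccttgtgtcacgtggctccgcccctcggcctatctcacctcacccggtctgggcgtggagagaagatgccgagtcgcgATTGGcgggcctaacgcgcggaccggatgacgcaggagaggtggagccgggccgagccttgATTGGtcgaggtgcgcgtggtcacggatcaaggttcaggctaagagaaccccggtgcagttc
Ebp: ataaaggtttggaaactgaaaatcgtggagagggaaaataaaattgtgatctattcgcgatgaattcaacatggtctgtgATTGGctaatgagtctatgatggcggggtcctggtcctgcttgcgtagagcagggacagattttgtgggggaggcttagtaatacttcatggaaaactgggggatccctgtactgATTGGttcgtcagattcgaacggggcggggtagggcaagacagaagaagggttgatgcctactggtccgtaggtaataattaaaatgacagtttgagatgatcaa

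In the Msmo1 promoter the 3 CCAAT began 160, 96 and 55 bases before the gene's RefSeq start, and in the Hsd17b7 promoter 165, 73 and 12 bases before it. All distances here are from the RefSeq start, which can differ from the gene positions given below. The Msmo1 window lies mostly inside its position there, chr8:64718139-64733792. The Nsdhl promoter held 4, at 109 and 20 bases before the start and at 8 and 34 bases past it. Ebp, whose expression differed least between the groups, held 2, at 170 and 55 bases before its start. Lss and Cyp51 had 1 each, at 62 and 29 bases, and Dhcr7 had 2 in the third of its promoters, at 85 and 49 bases. The branch enzymes Tm7sf2, Lbr and Sc5d, which are not among the 9, held both CCAAT and GGGCGG in 3 of 3 promoters.

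Library totals lay between 31653464 and 43631312 counts. Each of the 9 genes had between 1225 and 11853 counts in every library, for which counting alone gives an error of 2.86% to 0.919%. Of all genes, 13084 had enough counts to be tested, including all 9, and their median log2 fold change was 0.0025. At an adjusted p under 0.05 edgeR called 121 genes (0.925%) higher and 283 (2.16%) lower with doxycycline, or 374 higher and 517 lower after a correction for GC content and transcript length. Doxycycline replicate 2 differed most from another library of its group (chi-square per degree of freedom of 19.005 against replicate 1, where the other replicate pairs gave 5.50 to 12.6), and 45S ribosomal RNA took 12.1% of its counts against 8.83% to 11.04% elsewhere. The chi-square was summed over all genes with counts, 45S ribosomal RNA among them, so it is not a sign separate from that share. With doxycycline replicate 2 left out, 269 genes were called higher. Epithelial markers (Krt8, Krt18, Krt7, Krt19, Epcam, Cdh1, Cldn7) were detected in 7 of 7 cases, with summed levels of 1811 to 1898 CPM untreated and 1759 to 1988 CPM with doxycycline, where CPM is the count in every 1000000 of the scaled library total. Of these 7, Krt19 was called lower, at 63.5 ± 2.15 CPM untreated and 51.4 ± 4.22 CPM with doxycycline (log2 fold change -0.31, edgeR adjusted p 0.00782). Summed leukocyte, endothelial and adipocyte markers stayed at or below 0.81 CPM, with Adgre1 at 0 throughout. Of the fibroblast markers Thy1 was at 0, and Pdgfrb, Col1a1 and Dcn did not exceed 0.522 CPM in any library. Pdgfra, the remaining one, was at 36.7 ± 1.37 CPM untreated and 27.8 ± 0.669 CPM with doxycycline (log2 fold change -0.40, edgeR adjusted p 0.000952), and its part in the results was not tested.

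The 3 enzymes that make squalene and close its rings were all higher with doxycycline. Fdft1, squalene synthase (chr14:63145150-63179578, minus strand), had 98.1, 91.4 and 88.2 CPM untreated against 132, 131 and 128 CPM with doxycycline. The groups did not overlap, and their means of 92.5 ± 5.04 and 130.2 ± 2.42 CPM (SD, n = 3 here and below) gave a log2 fold change of 0.49 (SE 0.05), or 1.41-fold. Only Nsdhl varied more between untreated libraries, and replicate 1 was the highest of the untreated values of Fdft1. Fdft1 shares 774 exonic bases with Ctsb, which lies on the opposite strand and was at 365 ± 14.1 CPM untreated and 331 ± 10.4 CPM with doxycycline (log2 fold change -0.14, edgeR adjusted p 0.11).

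Sqle, squalene epoxidase (chr15:59315077-59331192, plus strand), which adds the oxygen that later becomes the hydroxyl group of cholesterol, had 194, 196 and 200.2 CPM untreated against 248, 239 and 254 CPM with doxycycline. Apart from those of Ebp and Dhcr7 its difference was the smallest of the 9 genes, at 0.33 (SE 0.04) on the log2 scale or 1.26-fold, yet the lowest doxycycline library stood well above the highest untreated one. Lss, lanosterol synthase (chr10:76531588-76557138, plus strand), which folds the epoxide into lanosterol, had 65.6, 66.6 and 65.0 CPM untreated and 93.4, 98.5 and 93.3 CPM with doxycycline. The untreated libraries of Lss were among the most even of the 9 genes (65.8 ± 0.808 CPM), and the doxycycline libraries lay at 95.1 ± 2.97 CPM, a log2 fold change of 0.53 (SE 0.05). The antisense gene 4930483K19Rik overlaps 381 exonic bases of Lss on the other strand and was at 0.320 and 0.603 CPM on average, far below Lss itself.

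**Figure D1:**
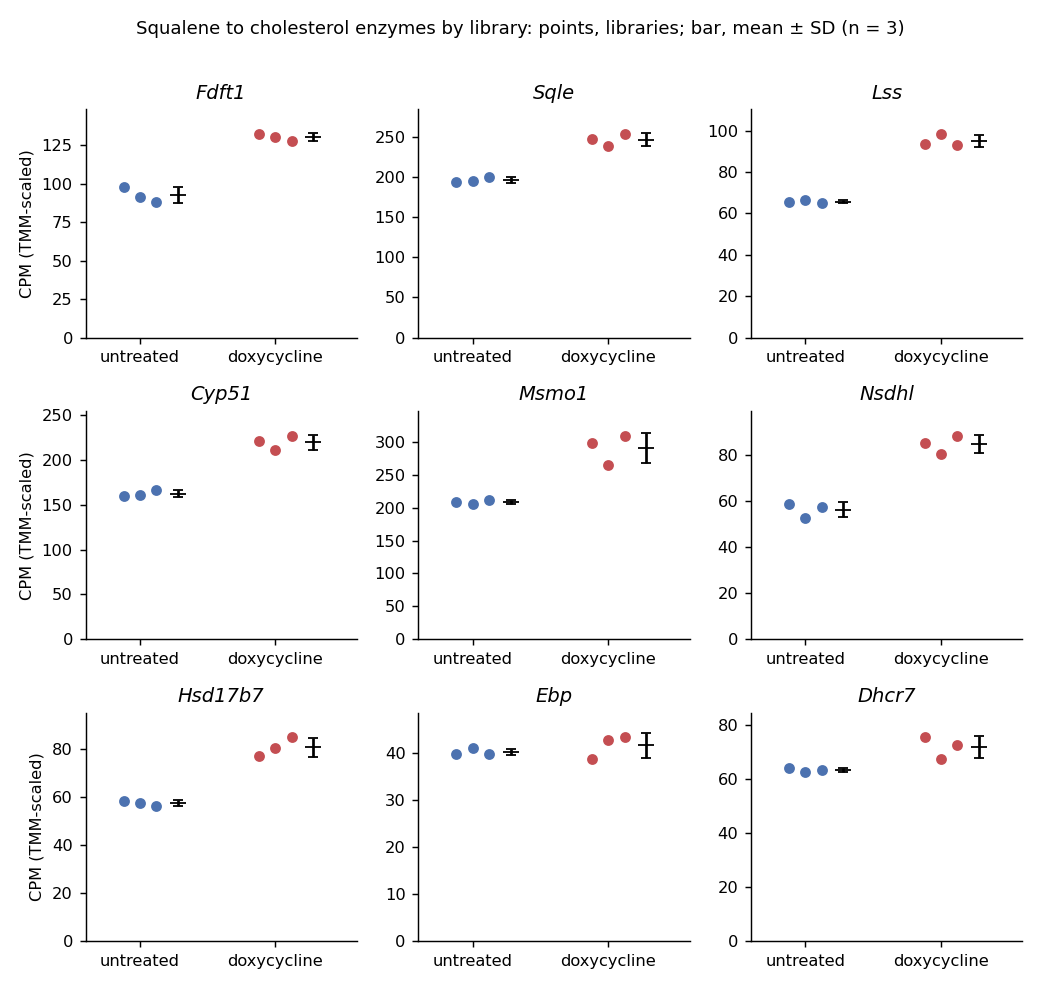
Expression of the 9 enzymes in each library, in CPM on a linear axis from 0, with untreated libraries in blue and doxycycline libraries in red. Black bars give the mean ± SD over 3 libraries, and the colors overlap in range for Ebp, at 39.7 to 40.9 against 38.5 to 43.3 CPM, and for no other of the 9.

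Lanosterol carries 3 methyl groups that cholesterol lacks, and the 4 enzymes that remove them were higher as well. Cyp51 (chr5:4081145-4104746, minus strand), the cytochrome that removes the first of these groups, had 159.8, 161 and 167 CPM untreated and 221, 211 and 227 CPM with doxycycline. Its means of 162 ± 3.70 and 219 ± 8.20 CPM differed by 0.43 (SE 0.05) on the log2 scale, or 1.35-fold. Akap9 overlaps 166 exonic bases of Cyp51 on the opposite strand and was at 149.7 ± 1.83 and 151 ± 6.82 CPM, with a log2 fold change of 0.011.

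Msmo1, the methylsterol monooxygenase (chr8:64718139-64733792, minus strand), oxidises the methyl groups that remain. It had 208, 205 and 211 CPM untreated and 298, 265 and 309.6 CPM with doxycycline. The untreated libraries lay close together and the doxycycline libraries were the most spread of the 9 genes, with a coefficient of variation of 7.90%, since replicate 2 stood apart below the other two. The log2 fold change of Msmo1 was 0.48 (SE 0.05), or 0.55 without that library.

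Nsdhl, the sterol dehydrogenase that decarboxylates the oxidised intermediate (chrX:72918557-72958514, plus strand), had 58.8, 52.6 and 57.7 CPM untreated against 85.6, 80.7 and 88.7 CPM with doxycycline. Its difference was the largest of the 9 genes, at 0.59 (SE 0.06) on the log2 scale or 1.51-fold, even though its untreated libraries also had the largest coefficient of variation, 5.91%. Hsd17b7, the ketone reductase that completes each round of demethylation (chr1:169949535-169969241, minus strand), had 58.5, 57.7 and 56.1 CPM untreated and 77.2, 80.4 and 85.0 CPM with doxycycline. The groups were again well apart, at 57.5 ± 1.23 and 80.8 ± 3.95 CPM, a log2 fold change of 0.49 (SE 0.06).

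The 2 members that act after demethylation differed less. Ebp, the sterol isomerase that moves a double bond within the ring system (chrX:8185329-8193512, minus strand), had 39.8, 40.9 and 39.7 CPM untreated and 38.5, 42.8 and 43.3 CPM with doxycycline. Doxycycline replicate 1 was below every untreated library and the other two were above, so the groups overlapped. The log2 fold change of Ebp was 0.05 with a 95% interval from -0.08 to 0.18, and no test compared Ebp with the other members. Dhcr7, the reductase that gives cholesterol from its dehydro precursor (chr7:143823145-143848410, plus strand), had 64.0, 62.5 and 63.2 CPM untreated and 75.4, 67.4 and 72.6 CPM with doxycycline. The groups did not overlap, and replicate 2 was the lowest of the doxycycline libraries. The log2 fold change of Dhcr7 was 0.18 (95% interval 0.07 to 0.30), or 0.23 without that library.

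In the fit over all genes, 7 of the 9 (all but Ebp and Dhcr7) passed the threshold as higher and 0 as lower, where 0.925% and 2.16% of the tested genes did. Dhcr7 also passed without doxycycline replicate 2 and with the correction for GC content and transcript length, so its place depends on the setting. The doxycycline libraries lay above all untreated libraries for 8 of the 9, where this held for 10.1% of the tested genes. Nothing is read from either count, as the genes had been picked with this contrast known. Their median log2 fold change was 0.48 (1.40-fold) beside the 0.0025 of all tested genes. Their summed level was 942 ± 8.28 CPM untreated and 1262 ± 43.2 CPM with doxycycline, a ratio of 1.34. More cells that express a gene and more RNA per cell cannot be told apart in such bulk libraries.

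Of 3 further enzymes of the branch, 1 was called higher, where 0.925% of all tested genes were. Sc5d, the desaturase that acts between Ebp and Dhcr7, had 170.3, 172 and 174 CPM untreated and 212, 182 and 211 CPM with doxycycline (log2 fold change 0.23, SE 0.05, edgeR adjusted p 0.018). Its call was lost when any untreated library or doxycycline replicate 3 was left out, with log2 fold changes of 0.19 to 0.24 and adjusted p-values of 0.0971 to 0.136.

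The step that follows Cyp51, reduction of the double bond left in the ring, can be carried out by Tm7sf2 or by Lbr, a protein of the inner nuclear membrane, and neither was called. Tm7sf2 had 8.11, 8.99 and 8.84 CPM untreated and 7.30, 10.2 and 10.998 CPM with doxycycline (log2 fold change 0.15, 95% interval -0.13 to 0.42, edgeR adjusted p 0.642). That value was 0.30 without doxycycline replicate 1, 0.09 without replicate 2 and 0.03 without replicate 3. Tm7sf2 shares 532 exonic bases with Vps51 on the same strand, so reads there could have been counted for either gene or for neither. Lbr had 337, 319.8 and 322 CPM untreated and 327, 313 and 341 CPM with doxycycline (log2 fold change 0.0039, 95% interval -0.09 to 0.10, edgeR adjusted p 0.978). Of its exonic bases, 440 are shared with Dnah14 or Gm26004. The groups overlapped for both Tm7sf2 and Lbr, and Lbr had 10408 to 14788 counts in each library. No test compared Tm7sf2 or Lbr with the 9 members.

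**Figure D2:**
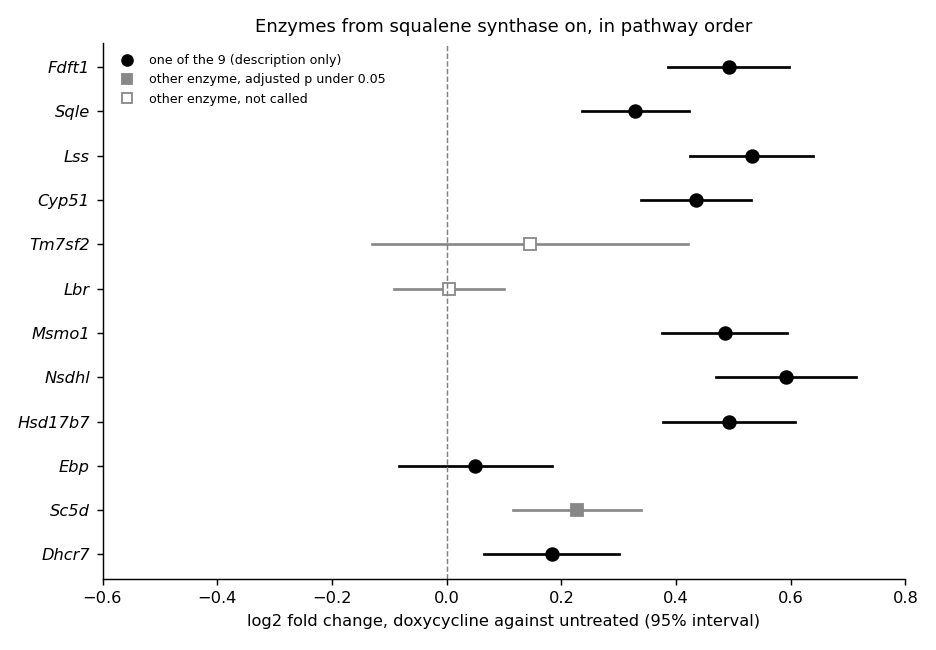
Log2 fold change of doxycycline against untreated libraries for 12 enzymes from squalene synthase on, listed from top to bottom in the order in which they act, with 95% intervals from the edgeR fit. Black circles are the 9 genes and gray squares 3 further enzymes, filled where edgeR called them; estimates of 0.33 to 0.59 for the first 4 members and for Msmo1, Nsdhl and Hsd17b7 stand to the right of 0.05 for Ebp and 0.18 for Dhcr7.

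Of 6 proteins that pass electrons to these oxidases or bind them, edgeR called 0 in either direction, where 0.925% of all tested genes were called higher and 2.16% lower. These helpers are Por, the reductase that supplies Cyp51 and Sqle, the cytochromes Cyb5a and Cyb5b with their reductase Cyb5r3, the heme-binding Pgrmc1, and 0610007P14Rik, the mouse gene of the scaffold ERG28. Their median log2 fold change was -0.08, and 2 of the 6 were above zero. Por was at 157 ± 2.74 CPM untreated and 148 ± 10.4 CPM with doxycycline (-0.08), and Cyb5r3 at 189 ± 7.99 and 176 ± 14.7 CPM (-0.10). Cyb5b was at 559 ± 3.51 and 587 ± 20.9 CPM (0.07). Cyb5a, at 17.5 ± 1.02 and 15.2 ± 1.09 CPM, had a log2 fold change of -0.20 (95% interval -0.39 to -0.01, edgeR adjusted p 0.267) and was the only 1 of the 6 with an unadjusted p under 0.05. Pgrmc1 (-0.08) and 0610007P14Rik (0.13) had overlapping groups. DESeq2 and limma voom also called 0 of the 6, but without doxycycline replicate 2 edgeR called Por (-0.14, adjusted p 0.0364) and Cyb5r3 (-0.17, adjusted p 0.00498) lower.

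Of the enzymes that supply farnesyl diphosphate, 7 of the 7 listed were called higher, where 0.925% of all tested genes were, with log2 fold changes from 0.41 to 0.67 and a median of 0.54. This list, like the others, was drawn up with the difference already known, so its count and p-values are no independent evidence. Fdps, which makes farnesyl diphosphate itself, was at 125 ± 4.97 CPM untreated and 199 ± 8.26 CPM with doxycycline (0.67, SE 0.05, edgeR adjusted p 3.27e-08). Hmgcs1, an early synthase of the mevalonate pathway, had a log2 fold change of 0.54. Mvd, the decarboxylase that gives isopentenyl diphosphate, was at 15.8 ± 0.677 CPM untreated and 24.1 ± 0.721 CPM with doxycycline (0.61, SE 0.08, edgeR adjusted p 7.03e-05). The values of Fdft1, Lss, Cyp51, Msmo1, Nsdhl and Hsd17b7 fell within the range of these 7 enzymes. Mvk, named for this, lost its call without untreated replicate 3 (0.34, edgeR adjusted p 0.089).

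Of 8 genes that use farnesyl diphosphate for other products (dolichol, ubiquinone, protein prenylation, heme A and geranylgeranyl diphosphate), 0 were called by edgeR, DESeq2 or limma voom, and with 0.925% of all tested genes called higher and 2.16% lower a list of this size could show 0 in any case. Their median log2 fold change was 0.03, and Pdss1, named here after its value was seen, was the 1 gene with an unadjusted p under 0.05 (0.16, adjusted p 0.283). Nus1, also named for its value, was called without doxycycline replicate 2 (0.16, adjusted p 0.0131). No test compared these genes with the sterol enzymes, and the lists are described side by side.

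Among 9 genes of SREBP control and sterol transport, 3 were called higher and 0 lower, where 0.925% and 2.16% of all tested genes were, with a median log2 fold change of 0.09. Insig1, which retains SREBPs in the ER and is itself an SREBP target, was at 129 ± 3.09 CPM untreated and 169 ± 2.89 CPM with doxycycline (0.39, SE 0.05, edgeR adjusted p 1.76e-05). Stard4, a cytosolic sterol carrier, was at 45.3 ± 1.21 and 55.6 ± 1.42 CPM (0.30, SE 0.06, edgeR adjusted p 0.00455). Srebf2, which encodes the SREBP most tied to cholesterol genes, was the remaining call (0.18, edgeR adjusted p 0.0399) and was lost with library size as the only scaling. Between 1 and 4 of these SREBP genes were called when a library was left out, with 1 (Insig1) without untreated replicate 3 and 4 without doxycycline replicate 2, where Mbtps2, named for this, was called (0.15, adjusted p 0.0314). Srebf2 was also lost without untreated replicate 1, untreated replicate 2 or doxycycline replicate 3 (adjusted p-values of 0.133 to 0.168). Insig2, named for its value, was not called and lay lower, at 52.2 ± 0.484 CPM untreated and 47.2 ± 0.964 CPM with doxycycline. Its log2 fold change was -0.15 (95% interval -0.26 to -0.03, edgeR adjusted p 0.195), while 7 of the 9 estimates were above zero.

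Of 6 ER ubiquitin ligase components known to act on sterol enzymes, such as March6, which marks squalene epoxidase for degradation, 0 were called by edgeR, DESeq2 or limma voom and 0 had an unadjusted p under 0.05, with a median log2 fold change of -0.01. With 0.925% of all tested genes called higher and 2.16% lower by edgeR, a list of this size could show 0 calls in any case. Of 11 genes listed under sterol esterification, oxidation and export, Ch25h, Cyp27a1 and Cyp7b1 had 0 counts in all libraries. The list also holds the nuclear receptors Nr1h2 and Nr1h3 and the lysosomal sterol carriers Npc1 and Npc2. Of the 8 tested, 0 were called by any of the 3 tools. At the same shares this list could also show 0 calls in any case. All 8 estimates were below zero, with a median of -0.11 beside the 0.0025 of all tested genes, a difference that was not tested. Some of the 8 had few counts, with 4 to 20 in a library for Soat2 and 31 to 84 for Nr1h3. The 95% interval of Soat2 ran from -1.93 to 0.47. Abca1, named after its value was seen, was the 1 gene with an unadjusted p under 0.05 (-0.38, edgeR adjusted p 0.26). Without doxycycline replicate 2, Abcg1 (-0.77, adjusted p 0.0148) and Npc2 (-0.16, adjusted p 0.0257), named for this, were called lower.

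**Figure D3:**
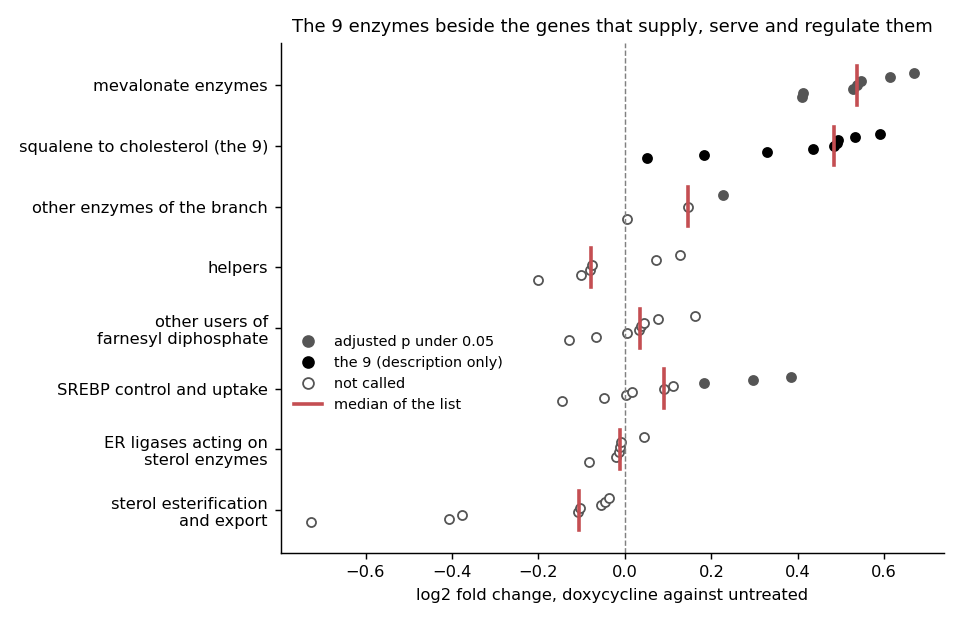
Log2 fold changes of doxycycline against untreated libraries for the 9 enzymes (black, all filled) and for 7 further lists (gray, filled where edgeR called the gene), 1 point per tested gene, with the median of each list as a red bar. Medians of 0.54 for the mevalonate enzymes and 0.48 for the 9 stand above 0.15 for the other enzymes of the branch and 0.09 for SREBP control. Those of other users of farnesyl diphosphate, ligases, helpers and the esterification and export list were 0.03, -0.01, -0.08 and -0.11.

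Levels of the 9 genes were compared with each other per transcript length, as RPKM (CPM per kilobase of the longest transcript), from the untreated libraries. Msmo1 had the highest level, 102 ± 1.51 RPKM, followed by Sqle with 71.2 ± 1.25 and Cyp51 with 41.3 ± 0.940 RPKM, the 3 members that use molecular oxygen. Next came Nsdhl with 26.0 ± 1.54 and Fdft1 with 25.03 ± 1.36 RPKM, whose ranges over libraries overlapped, so that no order is given between this pair. Ebp (23.0 ± 0.399 RPKM) and Dhcr7 (22.5 ± 0.266 RPKM) followed, and Lss (14.1 ± 0.173 RPKM) and Hsd17b7 (12.5 ± 0.267 RPKM) were lowest, 7.22- and 8.17-fold below Msmo1. Apart from Nsdhl and Fdft1, the ranges of neighbors in this order did not overlap.

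All 9 were above the median of the tested genes, 8.45 RPKM, and between 60.3% and 95.9% of the tested genes with a length lay below them. Msmo1 made up 30.2% of the summed level of the 9 in untreated libraries and 31.7% with doxycycline, while the share of Ebp was 6.83% and 5.31% and that of Dhcr7 6.66% and 5.68%. In the doxycycline libraries Dhcr7 (25.5 ± 1.44 RPKM) stood before Ebp (23.8 ± 1.49 RPKM) in the order of means, the 1 change of place among the 9, with overlapping ranges. The order depends on the length assumed, since with the mean over a gene's transcripts it ran Msmo1, Sqle, Dhcr7, Cyp51, Ebp, Fdft1, Lss, Nsdhl and Hsd17b7. There Dhcr7 came before Cyp51, so the top places were no longer held by the oxygen-using members alone.

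**Figure D4:**
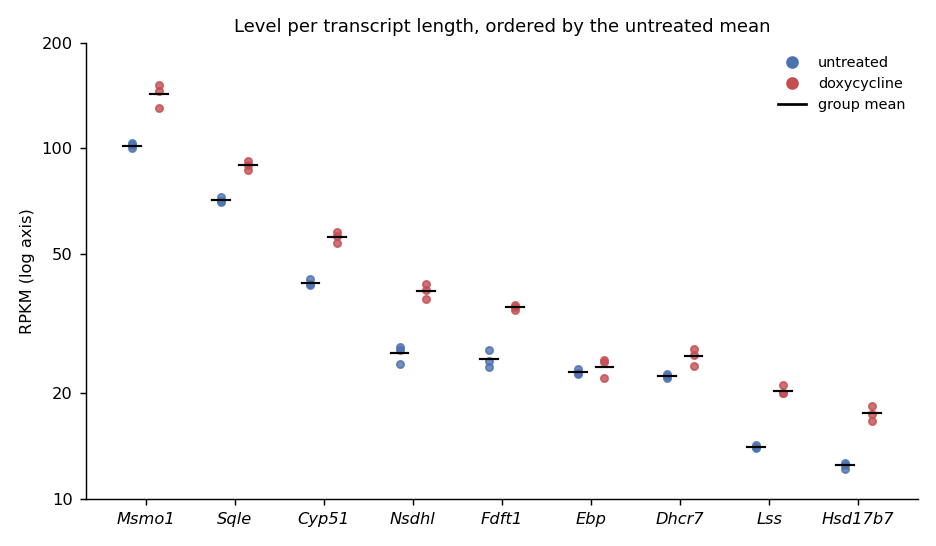
Level of each of the 9 enzymes per transcript length, in RPKM on a log axis, ordered by the untreated mean from left to right. Points are libraries (blue untreated, red doxycycline) and black bars group means, running from 102 RPKM for Msmo1 to 12.5 RPKM for Hsd17b7 in untreated cells, with red above blue for all but Ebp.

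Within the groups the 9 genes had coefficients of variation of 1.18% to 5.91% in untreated and 1.86% to 7.90% in doxycycline libraries, where the medians of all tested genes were 5.39% and 7.16%. Those medians include genes with fewer counts and so a larger counting error, while the 9 had at least 1225 counts in each library. Genes of like level were not compared. Doxycycline replicate 3 was the highest of its group for 6 of the 9 (Sqle, Cyp51, Msmo1, Nsdhl, Hsd17b7 and Ebp), which held for 28.5% of the tested genes. Doxycycline replicate 2 was the lowest for 5 of the 9 (Sqle, Cyp51, Msmo1, Nsdhl and Dhcr7), which held for 36.6% of the tested genes. The largest deviation from a group mean was that of Msmo1 in replicate 2, -0.13 on the log2 scale, followed by that of Ebp in replicate 1, -0.11. Lss went the other way, with its highest value in replicate 2. In untreated libraries deviations ran from -0.10 for Nsdhl in replicate 2 to 0.08 for Fdft1 in replicate 1, and no library was highest for more than 4 of the 9.

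**Figure D5:**
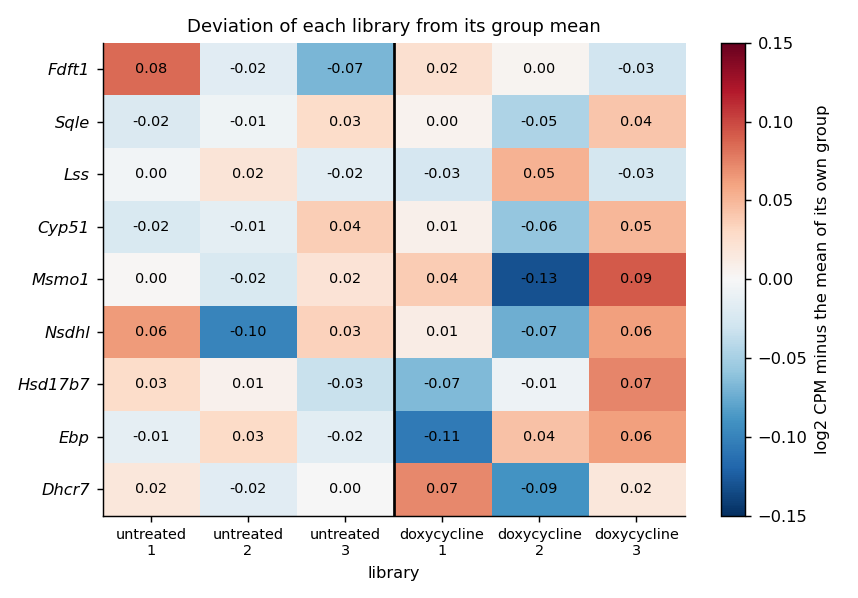
Deviation of each library from the mean of its own group, in log2 CPM, for the 9 enzymes (rows) and 6 libraries (columns), with red above and blue below the group mean. Doxycycline replicate 2 is blue for Sqle, Cyp51, Msmo1, Nsdhl and Dhcr7, and doxycycline replicate 3 is red for Sqle, Cyp51, Msmo1, Nsdhl, Hsd17b7 and Ebp.

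The genes most like the 9 in their profile over the 6 libraries were sought among 8773 genes with a mean of at least 10 CPM, by the Euclidean distance between log2 CPM centered on each gene's mean and the mean centered profile of the 9. The distance includes the difference between the groups, so genes found this way share it by construction. Nearest were Adam12 (a membrane-anchored metalloprotease) at 0.079, 5830416P10Rik at 0.088, Insig1 at 0.091, Mthfd2 (a mitochondrial folate enzyme) at 0.098 and AI506816 at 0.108. Their log2 fold changes were 0.40, 0.44, 0.39, 0.32 and 0.34 in that order. Each member is also part of the mean profile, which draws it closer. Of the members, Cyp51 lay nearest to the mean profile, at 0.076 with 0 other genes nearer, and Sqle next, at 0.098 with 3 nearer. Ebp was farthest, at 0.453 with 2437 other genes nearer, and Dhcr7 followed at 0.281 with 171.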

How the data were processed

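Total RNA was depleted of ribosomal RNA and made into libraries with a kit that marks the strand. Per the labels and the study's methods, the authors used STAR to align reads to mm10 (GRCm38), counted them per gene with featureCounts (Subread 1.6.2, after bcl2fastq 2.20) and deposited raw counts, with no normalization and replicates kept apart. The strand setting and the rules for multi-mapping reads and for overlapping genes are not given in the sources used here. Reads of overlapping genes can therefore fall to either or be left uncounted. All 6 columns were matched to a sample (0 were left over), and 6760 genes had no count.

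Counts were fitted in R 4.3.3 with the robust quasi-likelihood test of edgeR 4.0.16, with TMM scaling, filterByExpr and group as the only term, and p-values were adjusted by Benjamini-Hochberg at 0.05 over 13084 genes. SE is the absolute log2 fold change over the square root of F, and intervals are 95%. CPM used TMM-scaled totals, at which 3 counts correspond to 0.0683 to 0.0944 CPM. Replicate pairs had a chi-square per degree of freedom of 5.50 to 19.005, so each library was counted once. Errors from counts cover counting only. RPKM used the longest protein-coding transcript in GENCODE M21, since RefSeq lengths, which had been planned, were not used here. Gene positions are from the same annotation and promoters from RefSeq.

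The 9 genes and all lists were chosen with earlier results of these data known. Named are the 9, the further enzymes and helpers, up to 3 called genes of smallest adjusted p from each other list, and the 5 genes nearest in profile. Others are said to be named for their value or for a call that changed. Some listed genes are not reported here and were left out of the counts of their lists. Alternatives were other scalings and filters, DESeq2 1.42.0, limma 3.58.1 (voom), each library left out in turn, a replicate block, Rn45s left out and thinning to the smallest total. A loess correction for GC content and length was chosen after seeing the data. The scripts were tested on simulated data. The groups share replicate numbers, by which no pairing of the libraries was seen.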

Additional observations from a re-analysis of the deposited data

How the results depend on the processing

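Over the 17 alternatives the log2 fold changes of the 9 stayed above zero, given as values since the genes were picked on this contrast. Ebp ran from 0.02 to 0.10, Dhcr7 from 0.15 to 0.23 and Nsdhl from 0.55 to 0.63. The median of the 9 ran from 0.44 to 0.49, both reached with 1 library left out, and was lowest (0.437) without doxycycline replicate 3. Over all genes, 210 were called higher and 439 lower with no filter on low counts, 185 higher by the Wald test of DESeq2, and 374 higher and 517 lower with the correction for GC content and length, where 42.0% of the calls were higher against 30.0% in the reported fit. With 1 library left out, 44 to 269 genes were called higher and 116 to 487 lower, with the fewest without untreated replicate 3 and the most without doxycycline replicate 2. The same omissions gave 0 to 1 further enzymes of the branch, 1 to 4 SREBP genes and 0 to 1 other users of farnesyl diphosphate called higher. They gave 0 to 2 helpers and 0 to 2 genes of the esterification and export list called lower. With the mean transcript length, shares of the summed level were 41.5% for Msmo1, 14.7% for Sqle, 8.32% for Cyp51, 8.32% for Dhcr7, 7.13% for Ebp, 5.69% for Fdft1, 5.32% for Lss, 5.24% for Nsdhl and 3.82% for Hsd17b7. With the replicate block, 118 genes were called higher and 300 lower. It changed no call in the other lists except that of Srebf2 (0.18, adjusted p 0.0504). Libraries with the same number did not deviate together (correlations of -0.04, -0.0045 and 0.02), and not every library correlated best with its own number. No pairing by number was seen, which does not exclude that libraries of the same number were handled together. The cause of these changes was not tested. With 3 libraries a group and a common biological coefficient of variation of 6.04%, differences as small as that of Srebf2 lay at the edge of what was called.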
